A study of Mus musculus with 35 samples.

Results

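The SMG genes encode factors of nonsense-mediated mRNA decay (NMD), the pathway that degrades mRNAs on which a ribosome stops too early. SMG1 is the kinase that phosphorylates the helicase UPF1, and SMG8 and SMG9 are its partners in one complex. Phosphorylated UPF1 is then bound by SMG6, an endonuclease that cuts the mRNA near the premature stop, and by SMG5, which helps to bring in decapping and deadenylation enzymes. Several mRNAs of NMD factors, among them Smg1 and Smg5, are known as substrates of the pathway in other cells. Here Smg1, Smg5, Smg6, Smg8 and Smg9 were taken by gene symbol from the gene rows of the count tables, which makes 5 of 24411 genes, and by annotated gene from the transcript tables, which makes 30 of 110379 transcripts.

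The mice carried floxed Smg6 alleles on a mixed C57Bl/6J and SV129 background. In Smg6-cKO males the Ngn3Cre transgene, which is driven in spermatogonia, deleted exon 9 of Smg6 in germ cells, and the controls were littermates without Cre and with 1 or both alleles floxed. RNA came from pachytene spermatocytes (Spc) and round spermatids (RS) enriched from testes of adult mice, with 3 libraries per genotype and cell type, and from chromatoid bodies (CB), the cytoplasmic RNA granules of round spermatids, isolated from pooled mice, with 3 Smg6-cKO and 4 control libraries. The series description gives 1 mouse per isolation of Spc and RS while the methods give testes of more than 1, so a library may hold 1 mouse or several. The enriched fractions hold other cells as well. Spc and RS libraries were made from polyadenylated RNA and CB libraries from total RNA with ribosomal RNA, so CB was not tested against Spc or RS. Spc and RS counts stand in separate tables of raw counts, which were scaled together where the cell types were compared.

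In the reference transcript of Smg6 (Smg6-201, 19 exons), exon 9 is a coding exon of 62 nt at chr11:74981852-74981913 on the plus strand of GRCm38. It is shown here in capitals with 25 nt of intron on each side (chr11:74981827-74981938), because it is the sequence that the Cre transgene removes.
Smg6 exon 9: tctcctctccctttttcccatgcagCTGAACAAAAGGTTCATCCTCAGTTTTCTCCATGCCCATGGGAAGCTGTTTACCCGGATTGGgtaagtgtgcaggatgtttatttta
Because 62 is no multiple of 3, joining exon 8 to exon 10 shifts the frame. The joined sequence is shown because it carries the new stop codon, in capitals. It reads from the last 30 nt of exon 8 (chr11:74946190-74946219) into exon 10 (chr11:74990070-74990096).
Smg6 exon 8 to 10: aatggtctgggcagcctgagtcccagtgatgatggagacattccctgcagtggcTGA
The full reading frame has 1418 codons, of which 886 lie before exon 9. Without exon 9 it runs through 8 codons out of frame and ends at TGA in exon 10, after 894 codons. After that stop 9 exon junctions lie at least 50 nt downstream, against 0 after the stop of the full frame, and such junctions are a known feature of NMD substrates. The annotated Smg6-202, which has 17 exons, lacks exon 9 and joins exon 8 to exon 10 in the same way, and it carries the nonsense-mediated decay biotype. The counts used here are sums over a gene or a transcript and do not report the exon itself, so they do not check the deletion.

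The 5 genes lie apart on 3 chromosomes. Smg1 (ENSMUSG00000030655) lies at chr7:118131308-118243670 on the minus strand, Smg9 (ENSMUSG00000002210) at chr7:24399619-24422778 on the plus strand and Smg5 (ENSMUSG00000001415) at chr3:88336260-88362338 on the plus strand. Smg6 (ENSMUSG00000038290) lies at chr11:74925823-75164448 on the plus strand and Smg8 (ENSMUSG00000020495) at chr11:87077732-87086774 on the minus strand. Exons of Smg6 overlap those of Srr and Gm12333 on the opposite strand, and the counting of genes, though not known for transcripts, used strand. The annotated 3′UTRs of the longest transcripts differ widely, with 4233 nt for Smg1, 1498 nt for Smg6, 1230 nt for Smg5, 400 nt for Smg9 and 221 nt for Smg8, and a long 3′UTR is another known feature of NMD substrates.

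Depth on genes was 36419197 to 47355837 counts per library in Spc, 40237647 to 45391308 in RS and 2705277 to 12103906 in CB, and the 5 genes together held 1708 to 11565 counts in CB libraries against 29662 or more in the others. In CB libraries the 10 most abundant genes took 40.9% to 60.0% of the counts. Markers of elongating spermatids, which condense the sperm head after the round stage, moved with genotype: the summed level of 10 such genes (Prm1, Tnp1 and others) was 23616 to 29238 CPM (counts scaled to equal library totals) in control RS and 2303 to 2470 CPM in Smg6-cKO RS, and 10 of 10 were lower. In Spc it was 4278 to 8376 CPM in controls and 498 to 1565 CPM in Smg6-cKO, and in CB 2766 to 5928 CPM against 414 to 651 CPM. The 7 spermatocyte markers measured, of 8 listed, summed to 578 to 636 CPM in control RS and 760 to 786 CPM in Smg6-cKO RS, while in the test described below 2 of the 7 were higher and 2 lower, with a median log2 fold change of 0.12 beside 0.11 for all genes. Leydig, macrophage, erythroid and Sertoli lists were also higher in Smg6-cKO RS, at 33.0 to 346 CPM against 5.85 to 6.43 CPM, 152 to 242 CPM against 15.7 to 20.5 CPM, 76.2 to 294 CPM against 16.6 to 19.3 CPM and 82.1 to 246 CPM against 37.7 to 50.7 CPM. In Smg6-cKO Spc the Leydig list was higher (572 to 1217 CPM against 119 to 402 CPM), and the Sertoli list was lower (167 to 274 CPM against 308 to 868 CPM). The sum of the macrophage list overlapped in Spc, but 5 of its 6 genes were called higher and 1, the most abundant Mrc1, lower. The erythroid sum was lower there (1.68 to 3.75 CPM against 11.7 to 23.6 CPM) almost wholly through Alas2, with 0 of 4 tested genes called higher and 1 lower. In Smg6-cKO CB the Leydig and Sertoli lists were higher (48.4 to 387 CPM against 16.7 to 48.4 CPM, apart only in the next digits, and 30.2 to 79.8 CPM against 26.9 to 29.7 CPM), while macrophage (15.3 to 66.4 CPM against 11.9 to 15.4 CPM) and erythroid lists overlapped. Of the 4 macrophage genes tested in CB, 2 were called higher and 0 lower. The spermatogonia list was higher in Smg6-cKO CB (35.8 to 92.4 CPM against 19.4 to 22.2 CPM) and Smg6-cKO Spc (52.1 to 98.3 CPM against 39.4 to 50.3 CPM, with 0 of 6 genes called), and the spermatid list was lower in Smg6-cKO CB (177 to 279 CPM against 453 to 733 CPM) and Smg6-cKO Spc (828 to 1043 CPM against 1068 to 1603 CPM). No marker was at 0 in a whole group. The part of these markers in the results was not tested, and a change in the share of a cell type cannot be told apart from a change of RNA per cell.

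Per length of exon, Smg9 and Smg5 were the most abundant of the 5 genes in control germ cells and Smg8 the least. In control Spc the level of Smg9 was 73.2 ± 13 CPM per kilobase of exons (mean ± SD, n = 3), that of Smg5 60.3 ± 3.9, that of Smg6 19.6 ± 4.3, that of Smg1 15.1 ± 0.95 and that of Smg8 8.85 ± 1.3. Libraries of Smg9 and Smg5 overlapped, as did those of Smg6 and Smg1, so these neighbours were not separated. Control RS had a different order, with Smg5 first at 46.7 ± 2.1, followed by Smg9 at 18.8 ± 7.0, Smg6 at 17.3 ± 3.8, Smg1 at 8.05 ± 0.11 and Smg8 at 2.15 ± 0.46, and only Smg9 and Smg6 overlapped. In control CB Smg6 ranked first at 32.7 ± 3.3 (n = 4), above Smg9 at 21.4 ± 5.3, Smg5 at 18.7 ± 5.1, Smg1 at 13.7 ± 2.0 and Smg8 at 3.22 ± 0.93. There Smg9 overlapped Smg5, and Smg5 overlapped Smg1. Smg6-cKO Spc had the order of control Spc, with Smg9 at 112 ± 12 and Smg5 at 65.2 ± 3.5 and no overlap between neighbours.

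In Smg6-cKO RS Smg9 returned to first place at 95.7 ± 13, with Smg5 at 64.7 ± 2.4, Smg6 at 26.6 ± 0.45, Smg1 at 21.8 ± 1.8 and Smg8 at 6.10 ± 1.0, and no neighbours overlapped. In Smg6-cKO CB Smg9 at 35.7 ± 18, Smg6 at 29.5 ± 8.2, Smg5 at 17.2 ± 6.7 and Smg1 at 11.9 ± 0.78 each overlapped the next, and Smg8 was lowest at 3.91 ± 0.64. These levels divide by library totals, on which the marker genes and the top genes of CB weigh, and they are a description without a test. The 5 genes took 0.119% to 0.129% of all gene counts in control Spc, 0.151% to 0.161% in Smg6-cKO Spc, 0.0733% to 0.0748% in control RS and 0.150% to 0.162% in Smg6-cKO RS. Their share of the counts in Smg6-cKO RS was thus close to that in Smg6-cKO Spc, while control RS stood lowest of the germ cell groups.

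**Figure D1:**
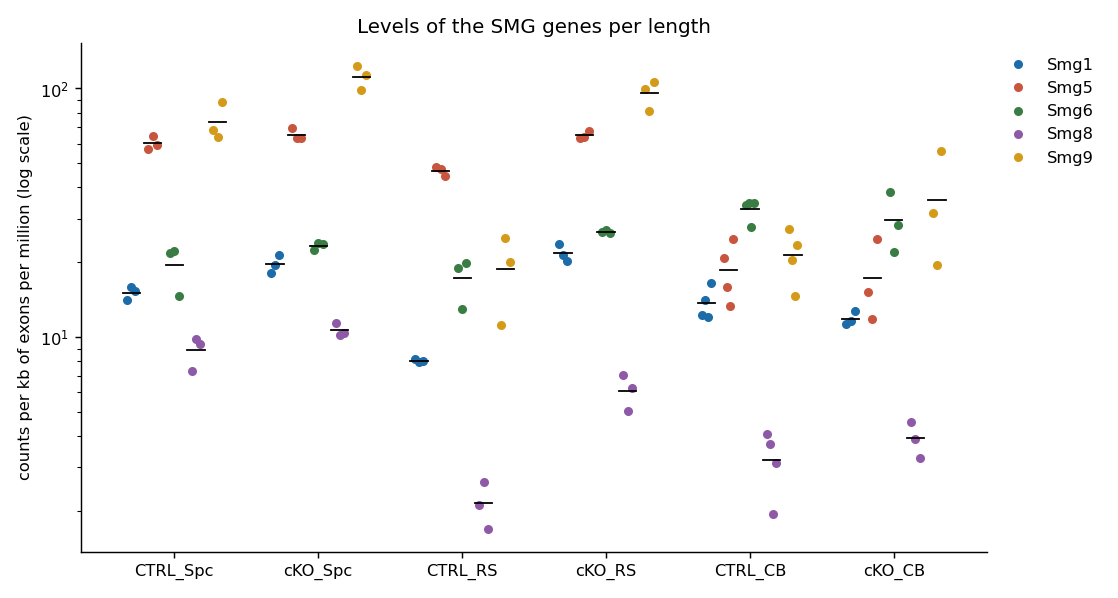
Level of each SMG gene in every library, in CPM per kilobase of exons (union of annotated exons), on a log axis, by group (CTRL, control). Points are libraries and lines are group means. Smg9 lies at 18.8 in control RS and between 73.2 and 112 in the other 3 germ cell groups, and Smg8 is lowest in every group.

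The first question was whether the 5 genes differed between Smg6-cKO and control cells of the same type. Counts were scaled by the trimmed mean of M values (TMM) within each comparison and compared by the two-sided quasi-likelihood test of edgeR, p-values were adjusted after Benjamini and Hochberg across every gene in the fit, and a gene was called at an adjusted p of at most 0.05. In Spc 2 of the 5 genes rose, both of the kinase complex, and 0 fell, where 14.0% of the 17321 genes tested were called higher and 14.1% lower. Smg1 had normalized counts of 15279, 16075 and 15462 in control Spc and 18805.5, 19918 and 20836 in Smg6-cKO Spc. All Smg6-cKO libraries lay above all controls, by 0.35 on the log2 scale (SE 0.065, adjusted p = 0.0112). Smg9 had 11369.8, 9942 and 13733 counts in controls and 19632, 15488 and 17162.5 in Smg6-cKO, again without overlap, and a difference of 0.58 (SE 0.14, adjusted p = 0.0231). The call of Smg9 was lost without control library 2 (0.47, adjusted p = 0.0508), Smg6-cKO library 1 (0.50, adjusted p = 0.0745) or Smg6-cKO library 3 (0.61, adjusted p = 0.0523), while that of Smg1 stayed when any 1 library was left out.

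The third member of the complex did not pass in Spc. Smg8 had 1069, 1335 and 1270.1 counts in control Spc and 1583, 1401 and 1369 in Smg6-cKO Spc, so the groups did not overlap, with log2 fold change 0.24 (SE 0.13, adjusted p = 0.180). Smg5 had 17999, 18914 and 17308 counts in controls and 20825, 18617 and 18006 in Smg6-cKO, at 0.08 with a 95% interval of -0.10 to 0.26. For Smg6 the control libraries were themselves apart, with 8374, 7888 and 5207 counts against 8198, 8569 and 8188 in Smg6-cKO. The third control library lay far below the rest, and the log2 fold change of 0.22 had an interval of -0.18 to 0.61. Without that library it was 0.03, and without control library 1 it was 0.36.

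In RS all 3 genes of the kinase complex rose, where 38.4% of the 17492 genes tested were called higher and 34.3% lower. For Smg9 the controls had 2219, 4789.5 and 4117 normalized counts and the Smg6-cKO libraries 12468, 10674 and 13844. Every Smg6-cKO library lay well above every control, a 3.33-fold difference (log2 1.73, SE 0.25, adjusted p = 0.000432). Smg9 was also past the size limit of 1.5 on the log2 scale that the study used for its gene lists, as were 14.8% of all genes tested in the higher direction. Control library 1 was the low one, and without it the log2 fold change was 1.46, under that limit. Smg8 had 365, 436 and 302 counts in controls and 766, 574 and 705 in Smg6-cKO, without overlap, at 0.89 (SE 0.18, adjusted p = 0.00217). Smg1 had 10487, 9866 and 10617 counts in controls and 19328, 18193 and 17103 in Smg6-cKO. Its replicates were the tightest of the complex, and it was 1.76-fold higher in Smg6-cKO (log2 0.82, SE 0.067, adjusted p = 1.68e-05).

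Smg5 and Smg6, whose proteins act after UPF1 is phosphorylated, did not pass in RS. Smg5 had 17975, 17118 and 17023 counts in control RS and 14891, 15651 and 16504 in Smg6-cKO RS, so that every Smg6-cKO library lay below every control, with log2 fold change -0.15 (SE 0.061, adjusted p = 0.0578). As each library was left out, it ranged from -0.17 to -0.04. With DESeq2 it was -0.22 (adjusted p = 0.0218), and with library totals in place of TMM it turned to 0.47 (adjusted p = 9.42e-05). Under that scaling the median over all genes was 0.73 in place of 0.11, and relative to the median of its own scaling Smg5 stood at -0.26 under both. Relative to the median of either scaling, Smg9 stood at 1.62, Smg8 at 0.78 and Smg1 at 0.71. Their log2 fold changes with library totals, not set against the median, were 2.35, 1.51 and 1.44. Smg6 had 8596, 5675 and 9298 counts in control RS and 7568, 8096 and 7779 in Smg6-cKO RS, at -0.01 with an interval of -0.38 to 0.37, and with library totals at 0.62 (adjusted p = 0.00377). The second control library was low here, and without it Smg6 was at -0.20 (adjusted p = 0.0370).

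**Figure D2:**
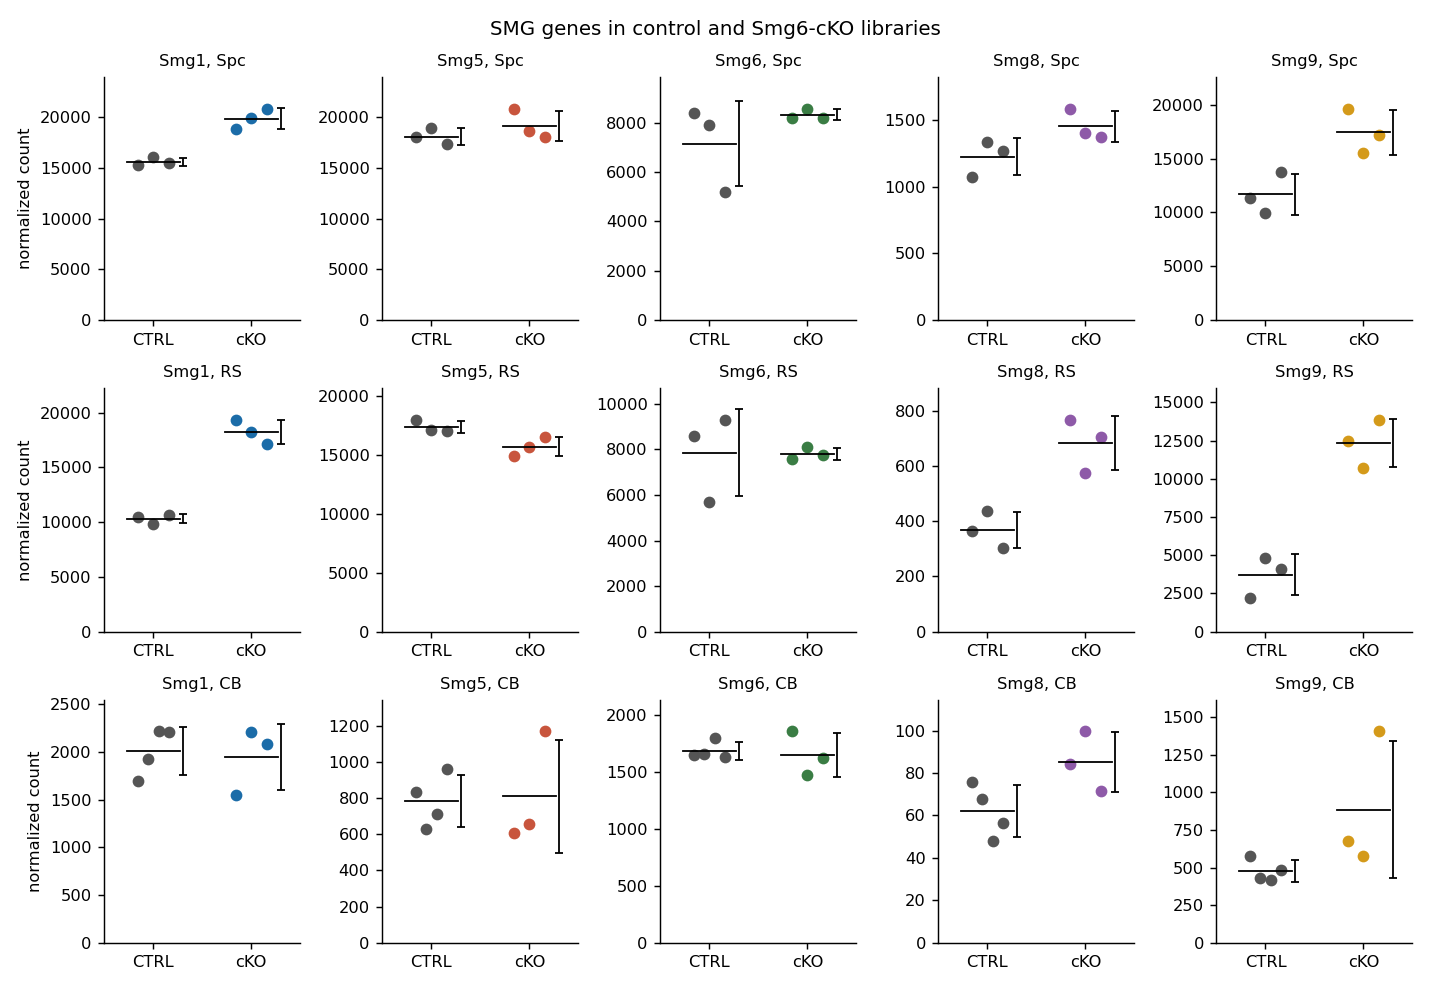
Normalized gene counts (TMM within each row) of the 5 SMG genes in control (CTRL, grey) and Smg6-cKO (colored) libraries of Spc, RS and CB, each axis starting at 0. Points are libraries, lines are means and bars to the right are SD. In RS the groups of Smg1, Smg8 and Smg9 lie apart with Smg6-cKO higher, while those of Smg6 overlap in all 3 rows.

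In CB 1 of the 5 genes rose and 0 fell, where 18.1% of the 14051 genes tested were called higher and 18.4% lower. Smg9 had 579.6, 428, 415 and 485 normalized counts in control CB and 674, 575 and 1405 in Smg6-cKO CB, where libraries are numbered 1, 2, 3 and 5 and 2, 3 and 4 as in the headings of the tables. The groups overlapped, and the log2 difference, 0.90 (SE 0.26, adjusted p = 0.0166), rested on Smg6-cKO library 4, without which it was 0.40 (adjusted p = 0.123). Smg8 had 75.6, 67.8, 48.0 and 56.3 counts in controls and 84.2, 99.7 and 71.6 in Smg6-cKO, at 0.43 (SE 0.24, adjusted p = 0.175). Smg1 had 1697, 1919, 2214 and 2203 counts against 1548, 2207 and 2077, at -0.05 with an interval of -0.44 to 0.35. The change of Smg1 in whole RS, 0.82, lay outside that interval, and the difference between the tables was not tested. Smg5 was at 0.05 (interval -0.45 to 0.55) and Smg6 at -0.03 (interval -0.37 to 0.32). Smg6 was the steadiest of the 5 in control CB, with 1652, 1659, 1802 and 1631 counts, and had 1857, 1472 and 1627 counts in Smg6-cKO CB.

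The step from Spc to RS was then compared within each genotype. In controls the kinase complex fell and the other members did not pass, so that 3 of 5 genes fell and 0 rose, where 36.2% of the 17046 genes tested were called higher and 39.7% lower. On the scale of this comparison Smg8 had 922, 1159 and 1099 counts in control Spc and 348, 423 and 287 in control RS, and fell by 1.59 on the log2 scale (SE 0.17, adjusted p = 0.000229). Smg9 had 9807, 8633 and 11886 counts in Spc and 2117, 4657 and 3909 in RS, and fell by 1.51 (SE 0.28, adjusted p = 0.00205). These 2 genes were past the size limit of 1.5, as were 17.0% of all genes tested in the lower direction, but Smg8 was at -1.45 without RS library 3, and Smg9 was at -1.23 without RS library 1, at -1.39 without Spc library 3 and at -1.44 with DESeq2. Smg1 had 13179.5 counts in its lowest Spc library and 10081 in its highest RS library, and fell by 0.45 (SE 0.067, adjusted p = 0.000718). Smg5 was at 0.09 (SE 0.071, adjusted p = 0.278, interval -0.08 to 0.26), which turned to -0.37 (adjusted p = 0.00265) with library totals, under which the median over all genes was -0.54 in place of -0.08 and Smg1 was at -0.91. With DESeq2 Smg5 passed at 0.16 (adjusted p = 0.0450). Smg6 was at 0.28 (SE 0.23, adjusted p = 0.297), and at 0.08 to 0.47 as each library was left out.

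In Smg6-cKO the same step changed 2 of the 5 genes, both lower, where 18.9% of the 17709 genes tested were called higher and 26.4% lower. Smg8 had 1652, 1437 and 1449 counts in Smg6-cKO Spc and 864, 671 and 799.9 in Smg6-cKO RS, and fell by 0.96 (SE 0.13, adjusted p = 0.00123). Smg9 had 20490.4, 15884 and 18161 counts in Spc and 14070.2, 12469.5 and 15718 in RS, so that the groups just missed overlapping, and fell by 0.37 (SE 0.12, adjusted p = 0.0350). That call was lost without RS library 1 (-0.29, adjusted p = 0.145) or 2 (-0.28, adjusted p = 0.0986), or without Spc library 1 (-0.21, adjusted p = 0.191) or 3 (-0.37, adjusted p = 0.0667). It was lost as well with DESeq2, with library totals, without a count filter and from summed transcripts, at -0.34 to -0.22 (adjusted p from 0.0607 to 0.152). Smg1 was at 0.01 with an interval of -0.16 to 0.18, an interval that leaves out the -0.45 of controls. Smg5 was at -0.15 (adjusted p = 0.138) and Smg6 at 0.04 (adjusted p = 0.590), and Smg6 passed with library totals at 0.19 (adjusted p = 0.0243). The comparisons between genotypes and between cell types share libraries, among them the low Smg9 library of control RS.

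Whether the difference between genotypes was the same in both cell types was tested as an interaction over the 12 Spc and RS libraries. The difference of Smg9 was larger in RS by 1.03 on the log2 scale (SE 0.33, adjusted p = 0.0270) and that of Smg1 by 0.35 (SE 0.092, adjusted p = 0.0109). Smg5 went the other way at -0.35 (SE 0.11, adjusted p = 0.0229), a sign that turned with library totals (0.36, adjusted p = 0.00669), where the median over all genes was 0.58 in place of -0.13. Over all 18171 genes tested, 19.0% were called higher and 24.1% lower. Smg8 was at 0.52 (SE 0.22, adjusted p = 0.0781) and Smg6 at -0.35 (SE 0.26, adjusted p = 0.293). Smg8 passed with DESeq2 (0.59, adjusted p = 0.0383) and with library totals (1.24, adjusted p = 0.00161), which put Smg1 at 1.06 and Smg9 at 1.74. Smg5 was not called with DESeq2, with elements scaled together with genes or from summed transcripts (adjusted p from 0.0587 to 0.0778). The 3 calls were thinly based, since leaving out the 4 libraries numbered 1 ended the call of Smg5 (-0.19, adjusted p = 0.153), leaving out those numbered 2 ended Smg1 (0.28, adjusted p = 0.163) and Smg5 (-0.44, adjusted p = 0.0796), and leaving out those numbered 3 ended Smg1 (0.49, adjusted p = 0.0511), Smg5 (-0.39, adjusted p = 0.106) and Smg9 (0.91, adjusted p = 0.159).

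**Figure D3:**
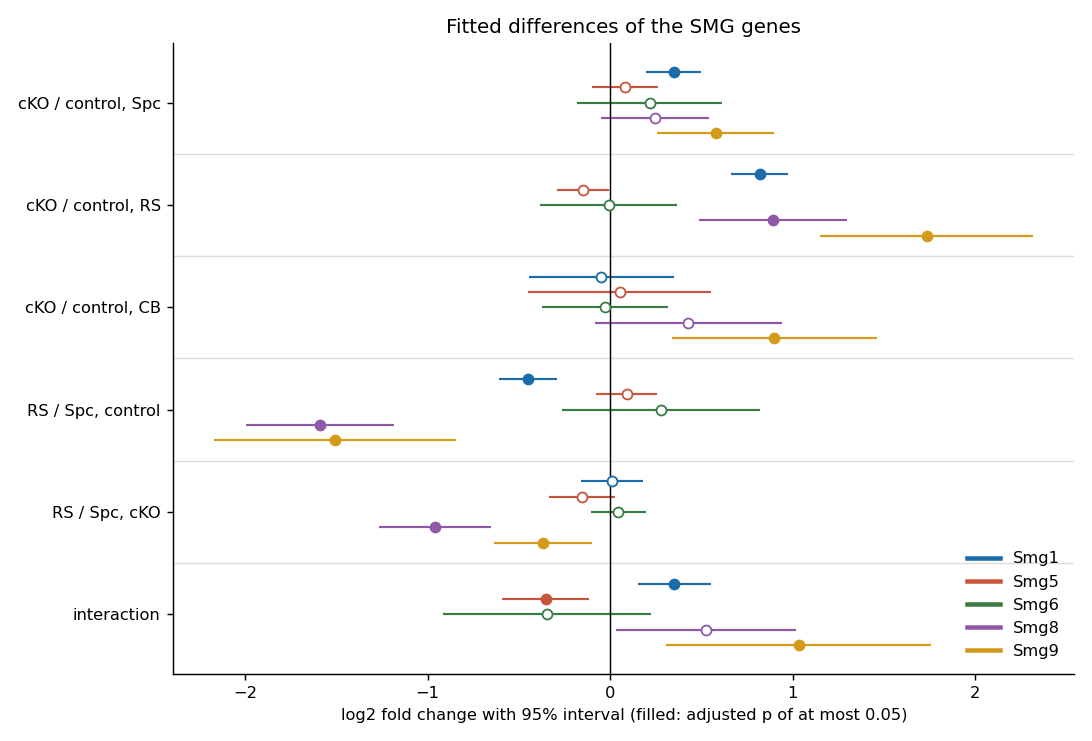
Log2 fold change with its 95% interval for each SMG gene in the 6 comparisons, where interaction is the Smg6-cKO difference in RS minus that in Spc. Filled points passed an adjusted p of at most 0.05. Smg1, Smg8 and Smg9 lie right of 0 between genotypes in RS, at 0.82, 0.89 and 1.73, and left of 0 between control RS and Spc, at -0.45, -1.59 and -1.51.

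A share of the counts of the 5 genes does not depend on how libraries are scaled to each other. The 5 shares make up the whole, so a rise of some lowers the others, and they are not independent. Smg5 supplied 45.3%, 45.2% and 41.2% of these counts in the control RS libraries and 27.1%, 29.4% and 29.5% in the Smg6-cKO RS libraries. Smg9 supplied 5.60%, 12.6% and 9.95% in control RS and 22.7%, 20.1% and 24.8% in Smg6-cKO RS, and Smg1 26.5%, 26.0% and 25.7% against 35.1%, 34.2% and 30.6%. In RS the groups of these 3 genes did not overlap, at p = 0.1 each in the exact permutation test (two-sided, adjusted over the 5 genes 0.167), the smallest p that 3 against 3 libraries allow. The share of Smg6 averaged 19.7% ± 4.1 in control RS and 14.3% ± 0.81 in Smg6-cKO RS (SD, n = 3) with overlap, and that of Smg8 0.933% ± 0.21 and 1.24% ± 0.16. In Spc only Smg5 had no overlap, with a mean of 33.6% ± 1.2 in controls and 28.9% ± 1.4 in Smg6-cKO (exact p = 0.1, adjusted 0.5). In CB the groups of all 5 shares overlapped. Smg6 held 33.7% ± 2.1 of the counts in control CB and 31.3% ± 6.9 in Smg6-cKO CB, and Smg9 9.54% ± 1.7 and 15.9% ± 5.5.

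**Figure D4:**
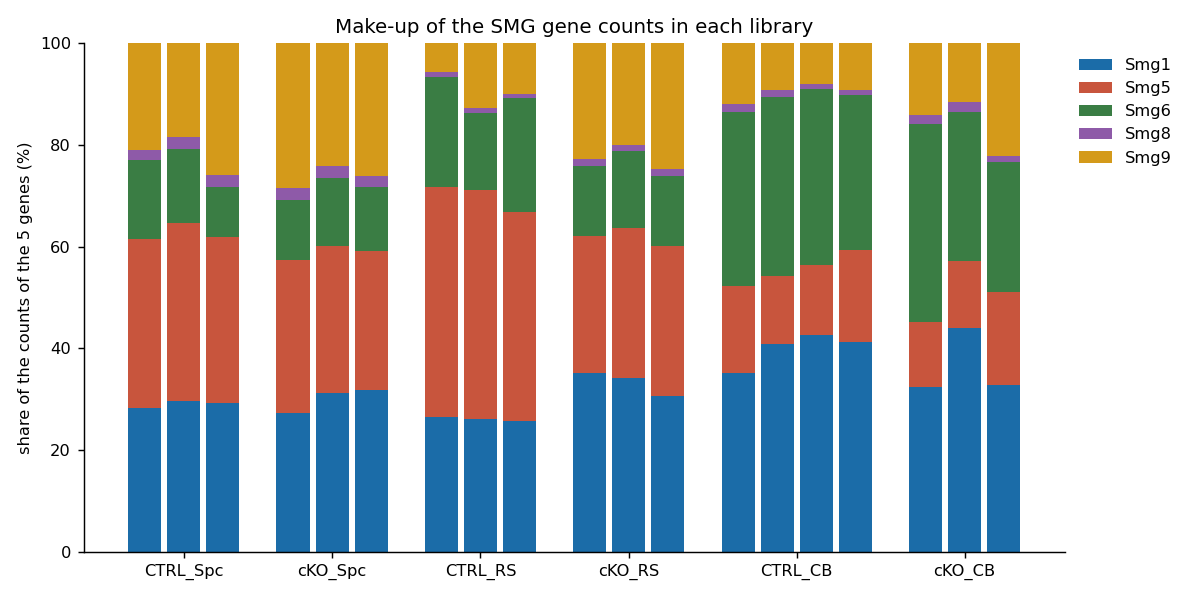
Make-up of the counts of the 5 SMG genes in each library, in percent, with 1 bar per library and groups named below (CTRL, control). The Smg5 part averages 43.9% in control RS and 28.7% in Smg6-cKO RS, and the Smg9 part 9.40% and 22.5%.

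The transcript tables hold 30 annotated transcripts of the 5 genes. Read pairs that fit several transcripts had been divided equally among them, so transcripts of a gene share reads and are not separate measurements. In Spc 13 of 30 transcripts rose and 0 fell, where 16.1% of all transcripts tested were called higher, and these were all 6 of Smg1, from 0.34 to 0.56, and all 7 of Smg9, from 0.58 to 0.61. Fewer passed without control library 1, 2 or 3 (5, 6 or 7) or without Smg6-cKO library 1 or 3 (3 each). In RS 15 of 30 rose and 0 fell, where 38.9% of all were called higher. They were the 6 of Smg1 (0.74 to 1.11), the 2 of Smg8 (0.97 and 0.99) and the 7 of Smg9 (1.74 to 1.88). All 9 transcripts of Smg5 and 6 of Smg6 missed the threshold in both cell types. With library totals 28 of the 30 passed in RS, as did 45010 of the 57133 transcripts tested.

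Within Smg1 the transcripts of every biotype rose in RS. Since transcripts of a gene share reads, this does not tell isoforms apart. Smg1-201, the full-length coding transcript, rose by 0.91 in RS, and Smg1-204, of the nonsense-mediated decay biotype and with 58 junctions at least 50 nt after its stop, rose by 0.86. Both retained-intron transcripts, Smg1-205 and Smg1-206, rose by 1.08 and 1.11. Smg1-204 held 44.1% ± 0.18 of the Smg1 transcript counts in control RS and 43.1% ± 0.79 in Smg6-cKO RS, without overlap (exact p = 0.1, adjusted 0.3). Of the 7 Smg9 transcripts 3 are coding and 4 retain introns, and the lowest of the 7 was at 1.74 in RS. The exons of Smg1-203 and Smg1-204 in the table differ from those of the annotation used here.

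CB had 9 of 28 tested transcripts higher and 1 lower, where 17.8% and 18.1% of all transcripts tested were called. The higher ones were 6 of the 7 of Smg9 (0.86 to 1.42), Smg8-201 (0.64, adjusted p = 0.0382), Smg6-205 (0.69, adjusted p = 0.0375) and Smg1-203 (0.88, adjusted p = 0.0356). The lower one was Smg1-202, at -0.93 (adjusted p = 0.0308), which passed the filter of 20 counts only through its control libraries, so that the filter favours this direction, and it was not called with DESeq2 (adjusted p = 0.127). Smg1-203 covers the 5′ end of the gene and Smg1-202 is a short 2-exon transcript of its 3′ part. Smg1-203 held 2.98%, 3.24%, 3.67% and 2.34% of the Smg1 transcript counts in control CB and 4.87%, 7.26% and 3.97% in Smg6-cKO CB, and its groups did not overlap (exact p = 0.0571, the smallest that 4 against 3 libraries allow, adjusted 0.229). Smg1-202 was counted 4.67 to 10.3 times in Smg6-cKO CB libraries and 10.7 to 54.7 times in the deeper control libraries, and its share of the Smg1 transcript counts overlapped, at 1.10% ± 0.29 in controls (SD, n = 4) and 0.588% ± 0.11 in Smg6-cKO (n = 3, exact p = 0.114). These calls were fragile, since 3 to 6 passed without control library 1, 2 or 5 or without Smg6-cKO library 4, and 1 with library totals.

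Between control Spc and RS 15 of 30 transcripts fell (6 of Smg1, 2 of Smg8, 7 of Smg9) and 1 rose, where 41.4% and 37.3% of all were called. The one that rose was Smg6-203, a retained-intron transcript that begins upstream of exon 10, at 0.50 (adjusted p = 0.0443). In Smg6-cKO only the 2 transcripts of Smg8 fell, by 0.88 and 0.73, where 27.7% of all were called lower, and with the replicate number as a block 8 transcripts passed.

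**Figure D5:**
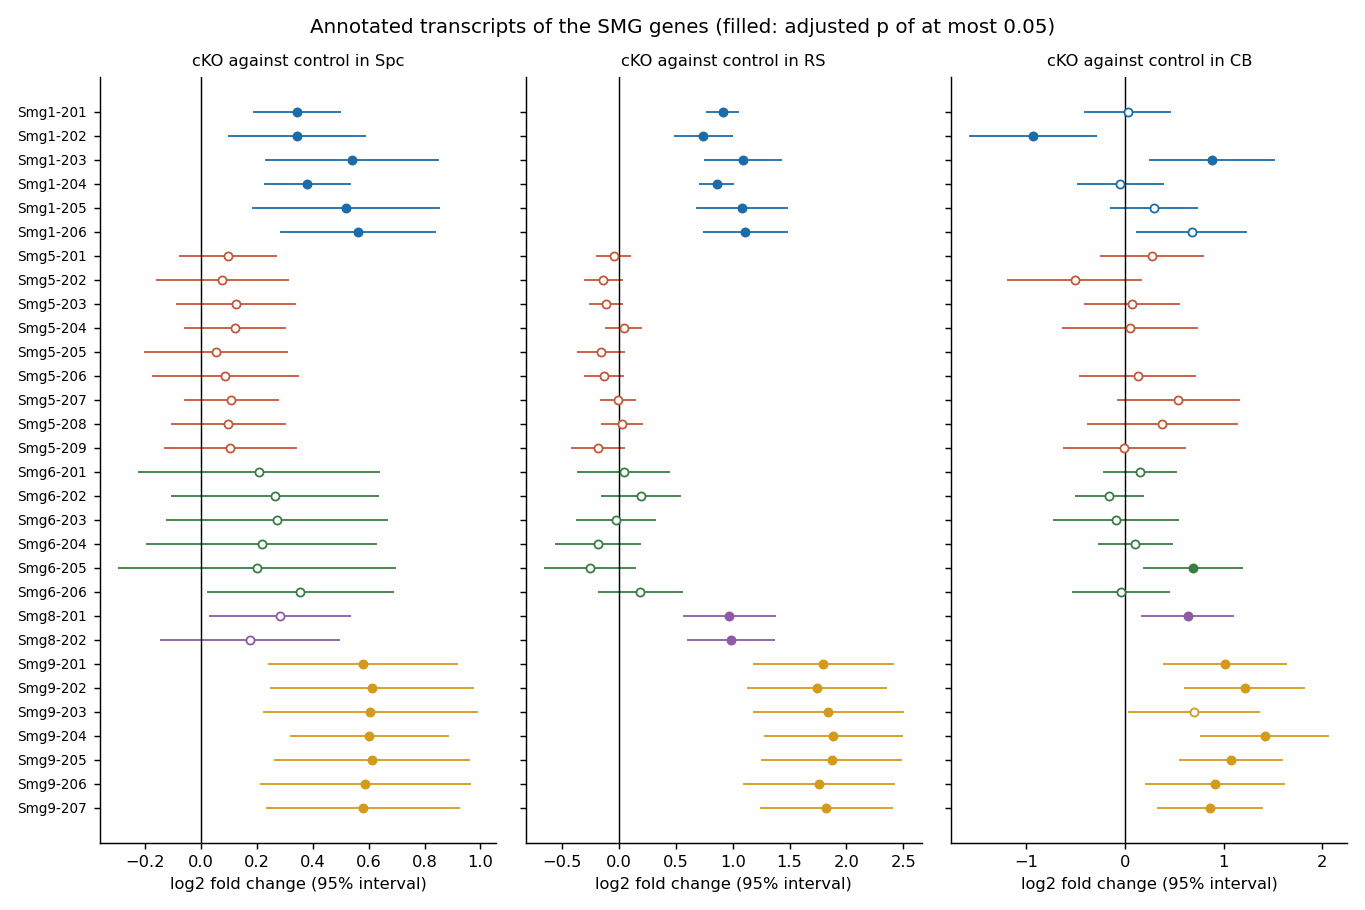
Log2 fold change with its 95% interval between Smg6-cKO and control for the annotated transcripts of the SMG genes in Spc, RS and CB, on a scale of its own in each panel. Filled points passed an adjusted p of at most 0.05 and transcripts without a point had too few counts. The transcripts of Smg9 lie between 1.74 and 1.88 in RS. Smg1-202 in CB passed the filter only through its control libraries.

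For Smg6 itself the transcript that lacks exon 9 was followed as a share of the gene's transcript counts. Smg6-202 held 29.1%, 30.3% and 29.1% in control RS and 32.3%, 32.2% and 31.2% in Smg6-cKO RS, where all Smg6-cKO libraries were higher. The difference of 2.42 percentage points had an exact p of 0.1 (adjusted 0.3). In Spc the share was 31.5% in controls and 32.0% in Smg6-cKO with overlap, and in CB it was 21.7% and 18.3% with overlap, so that the 3 sources did not share a direction. Since Smg6-202 shares 16 of its 17 exons with Smg6-201, most of its counts come from reads that fit both. The full-length Smg6-201 held 55.8% in control RS and 54.8% in Smg6-cKO RS. Smg6-204, a coding fragment from the 3′ part of the gene, held 6.10% ± 0.19 in control RS and 5.08% ± 0.21 in Smg6-cKO RS (SD, n = 3), again without overlap at an exact p of 0.1.

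Over the 5 genes, the shares of 3 of 30 transcripts did not overlap between genotypes in Spc, 10 of 30 in RS and 7 of 28 in CB, where 22.4%, 34.4% and 18.9% of all transcripts compared did not. In RS 4 of the 10 were of Smg6 and 3 of Smg9, and the largest difference was that of Smg6-202. In Spc the 3 were Smg1-206 and both transcripts of Smg8, of which Smg8-201 held 78.2% in controls and 79.4% in Smg6-cKO. Leaving out 1 library can by construction only keep or raise the number without overlap, for all transcripts alike, and it raised these counts to as many as 8 in Spc (without control library 3 or Smg6-cKO library 2), 20 in RS (without control library 2) and 12 in CB (without Smg6-cKO library 4).

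A list of 21 other NMD genes was compared in the same fits. It held the UPF genes, the exon junction complex, the release factors, decapping and decay factors, and the further NMD factors Nbas, Dhx34, Ruvbl1 and Ruvbl2. In Spc 4 of 21 rose and 1 fell, where 14.0% and 14.1% of all genes did, with a list median of -0.03 beside -0.01 for all genes. Upf2, whose protein bridges UPF1 and UPF3B, rose by 0.83 (adjusted p = 0.00169) and Upf1 by 0.67 (adjusted p = 0.00975), and Upf3a fell by 0.24 (adjusted p = 0.0474). In RS 13 of 21 rose and 5 fell, where 38.4% and 34.3% of all genes did, with a list median of 0.46 beside 0.11. The largest was Upf1, the substrate of the SMG1 kinase, at 2.12 (SE 0.10, adjusted p = 1.13e-06), followed by Magohb, a component of the exon junction complex, at 1.23. Upf3a fell by 0.90 (adjusted p = 7.68e-05) and the release factor Etf1 by 0.74. In CB 6 rose and 1 fell, where 18.1% and 18.4% of all genes did, with Upf1 at 1.07, Upf3a at 1.05 and Etf1, the one that fell, at -0.70, and a list median of 0.29 beside 0.07.

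Between control Spc and RS 5 of the 21 rose and 13 fell, where 36.2% and 39.7% of all genes did, with a list median of -0.40 beside -0.08. Upf1 fell by 2.21 (adjusted p = 5.66e-05) and the splicing cofactor Rnps1 by 2.02, while Upf3b and Etf1 rose by 1.32 and 1.29. In Smg6-cKO 4 rose and 9 fell, where 18.9% and 26.4% of all genes did, with the exon junction gene Casc3 at -1.13, Rnps1 at -1.10, Upf3b at 1.19 and the release factor Gspt2 at 0.88. In the interaction 6 were higher and 4 lower, where 19.0% and 24.1% of all genes were, with Gspt2 at 1.47, Upf1 at 1.34, Upf3a at -0.79 and Etf1 at -0.76.

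Across the 12 Spc and RS libraries the genes of the kinase complex correlated with each other. Pearson's r of log2 normalized counts was 0.843 for Smg1 with Smg9, 0.836 for Smg8 with Smg9 and 0.628 for Smg1 with Smg8. It was -0.215, -0.238 and -0.317 for Smg5 with Smg1, Smg8 and Smg9. For Smg6 it was 0.169, -0.388 and -0.228 with Smg1, Smg8 and Smg9, and 0.462 with Smg5. These are descriptions over libraries that share 4 groups. Among the 13062 genes averaging 100 or more normalized counts, the closest to Smg1 were Tmtc3 (r = 0.995) and Rbm33 (r = 0.989), to Smg8 Irf2bp1 (r = 0.9996) and Ccdc115 (r = 0.996), and to Smg9 Rab23 (r = 0.987) and Zfp180 (r = 0.980). The closest to Smg5 were Thap4 (r = 0.942) and Eif3k (r = 0.940). For Smg6 they were Rcbtb2 (r = 0.903) and Rapgef2 (r = 0.874), the weakest pair among the 5 genes.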

How the data were processed

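RNA-seq libraries of Spc, RS and CB were used, 19 in all, and small RNA libraries were not used here. Per the labels and methods, the authors trimmed reads with cutadapt 2.8 and aligned them to GRCm38 with STAR, whose version is 2.7.1a in the submitters' processing notes and a later one in the methods. The authors deposited gene counts, which are raw whole-number counts per gene made with TEtranscripts in reverse-stranded mode. The deposited transcript tables hold expected counts made with featureCounts 2.0.1, with a read pair divided equally among the transcripts it fits, and they were rounded to whole numbers here. Groups come from the labels. In CB the numbers in the tables' headings differ from those of the labels, so columns were assigned to groups only.

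Genes with at least 10 counts, and transcripts with at least 20, in at least 3 libraries of a comparison were kept. The 1146 transposable element rows stayed out of library sizes and tests. Each comparison was fitted with the two-sided quasi-likelihood test of edgeR 4.0.16 (R 4.3.3, limma 3.58.1) after TMM scaling, with p-values adjusted by Benjamini-Hochberg across every feature in the fit, and calls needed an adjusted p of at most 0.05. DESeq2 1.42.0, the study's tool, was an alternative, as were library totals, other filters, elements scaled with genes, transcript counts summed per gene, the replicate number as a block and leaving out each library. Shares were compared with exact permutation tests over libraries. Exons, biotypes and coordinates came from GENCODE and sequence from RefSeq's GRCm38 assembly. Levels per kilobase used the union of exons, and the longest transcript as an alternative. Normalized counts are counts scaled to the mean effective library size of a comparison. Fits were tested on simulated data. Tables, exact tests and plots were made with pandas 2.3.3, scipy 1.17.1, matplotlib 3.10.9 and numpy 2.4.6 under Python 3.11.15.

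The members, gene lists, tests and alternatives were chosen with earlier results of these data known. Named are all 5 members, of the 21 other NMD genes at most the 2 highest and 2 lowest called per comparison, for each member the 2 genes with the highest correlation among those averaging 100 or more normalized counts, and transcripts by size of share or, for others, after their values were seen. The spermatogonia list was 23.7 to 29.1 CPM in control RS and 62.4 to 101 CPM in Smg6-cKO RS, and the spermatid list 2989 to 3122 CPM and 1493 to 1684 CPM. The sources differ on whether an RS or Spc library holds 1 mouse or several, CB libraries are pools, and no libraries of a group were identical in counts. A further gene of the NMD list is not reported here.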

Additional observations from a re-analysis of the deposited data

Results flagged for a closer look

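The difference between Smg6-cKO and control was larger in RS than in Spc for Smg9, by 1.03 on the log2 scale (SE 0.33, adjusted p = 0.0270), and for Smg1, by 0.35 (SE 0.092, adjusted p = 0.0109), in edgeR's interaction term over the 12 libraries. For Smg5 the same term was -0.35 (SE 0.11, adjusted p = 0.0229) under TMM and 0.36 under library totals. Each of these calls was lost when the libraries of 1 number were left out.

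In control CB the normalized Smg6 count of library 3 was 1802 against 1631 to 1659 in the other libraries. Its gap to the nearest of them took 0.836 of the range of the group, past Dixon's limit of 0.829 for 4 samples, which chance passes in about 1 in 20 groups. The check was run on the count and the family share of every member in control CB, and it flagged no other value.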

How the results depend on the processing

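Of the values of single members, 151 kept their direction and their side of the threshold under the alternatives that use all libraries, 12 turned, 5 gained a call and 7 lost one. With library totals in place of TMM, Smg5 turned to 0.47 (RS), -0.11 (CB), -0.37 (control RS against Spc) and 0.36 (interaction), and Smg6 to 0.62, -0.18 (control RS against Spc) and 0.36 (interaction), since this scaling moves the median of all genes. In RS Smg6 was at 0.0025 without a count filter, 0.049 with elements, 0.066 from summed transcripts and 0.022 with the replicate block, and Smg5 in CB was at -0.039 without a filter. Among 13 transcripts followed, library totals turned Smg5-201 (0.48 in RS, -0.14 in CB, -0.38 in control RS against Spc), Smg5-203 (0.41, -0.34, -0.31), Smg6-205 (0.28 in RS), Smg1-201 (-0.41 in CB), Smg6-201 (-0.22 in CB, -0.16 in control RS against Spc) and Smg6-202 (-0.27). Smg6-201 in RS was at -0.011 with DESeq2 and -0.010 with a filter of 10 counts, and Smg1-201 in CB at -0.019 with that filter.

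Members called in RS rose from 3 to 5 with library totals. Of the 2 called between RS and Spc of Smg6-cKO, Smg9 was lost with DESeq2, without a filter and from summed transcripts, which left 1, and with library totals, where Smg6 passed in its place. Member transcripts called changed with library totals from 15 to 28 in RS, from 10 to 1 in CB and from 2 to 4 between RS and Spc of Smg6-cKO. The ratio of Smg9 to Smg8 in control Spc was 8.27 per union of exons and 13.7 per longest transcript, and the order of the genes was the same. Overlaps of neighbours changed. Per longest transcript Smg9 (105.4 or more) and Smg5 (101.1 or less) no longer overlapped in control Spc. There was then overlap of Smg6 (from 40.1) with Smg9 (up to 44.9) in control CB, and of Smg6 (from 32.4) with Smg1 (up to 32.8) in Smg6-cKO Spc.

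As each library was left out, members called ranged from 1 to 2 in Spc, 3 to 4 in RS, 0 to 1 in CB, 1 to 2 between RS and Spc of Smg6-cKO, and stayed at 3 between RS and Spc of controls. In the interaction, where the 4 libraries of a number were left out together, they ranged from 0 to 2. Transcripts called ranged from 3 to 11, 15 to 20, 3 to 10, 2 to 4 and, in controls, 12 to 18. Shares of the family without overlap ranged from 1 to 3 in Spc, 3 to 5 in RS and 0 to 2 in CB, and isoform shares from 3 to 8, 10 to 20 and 7 to 12. Log2 fold changes of Smg6 ranged from -0.20 to 0.12 in RS and -0.170 to 0.052 in CB, and those of Smg1 and Smg5 in CB from -0.142 to 0.043 and from -0.31 to 0.19. Values near 0 also turned for transcripts. In Spc Smg6-201 ranged from -0.012 to 0.343 and Smg6-205 from -0.030 to 0.386. In RS the ranges were -0.099 to 0.123 for Smg5-201, -0.161 to 0.034 for Smg5-203 and -0.173 to 0.193 for Smg6-201. In CB they were -0.109 to 0.171 for Smg1-201, -0.183 to 0.088 for Smg1-204, -0.069 to 0.439 for Smg5-201 and -0.132 to 0.181 for Smg5-203. Between RS and Spc of controls they were -0.056 to 0.126 for Smg5-201, -0.0051 to 0.186 for Smg5-203, -0.0039 to 0.496 for Smg6-201 and -0.081 to 0.366 for Smg6-202, and of Smg6-cKO -0.082 to 0.043 for Smg5-201, -0.108 to 0.029 for Smg5-203 and -0.011 to 0.205 for Smg1-202. Differences in family share ranged, in percentage points, from -2.44 to 0.386 for Smg6 and -0.241 to 0.0036 for Smg8 in Spc, and from -2.70 to 0.162 for Smg5 and -6.18 to 0.494 for Smg6 in CB.

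The labels do not say whether a number marks a mouse. The correlations of same-numbered libraries of Spc and RS ran from -0.29 to 0.59. Not all pairs of a comparison passed 0.1, so the tests were unpaired. With so few libraries per group this check cannot exclude pairing. Between RS and Spc of Smg6-cKO the correlations were -0.05, 0.59 and 0.36 for numbers 1, 2 and 3. With the replicate block 2, 3, 3, 2 and 3 members were called in Spc, RS, control RS against Spc, the same in Smg6-cKO and the interaction, and member transcripts between RS and Spc of Smg6-cKO went from 2 to 8. No paired analysis was possible in CB because the numbers in the headings differ from those of the labels. Depth limits CB, where some transcripts have under 20 counts in most libraries.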
